A study of Homo sapiens with 6 samples.

Results

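Genes of the human HOXB, HOXC and HOXD clusters were followed in BE-(2)-C neuroblastoma cells treated for 48 hours with an siRNA that targets ELF4. Members were the rows of the deposited table whose whole name is HOX, a cluster letter from A to D and a number, with no other name joined to it. This rule found 15 of the 26906 rows: 1 gene of HOXB, 8 of HOXC and 6 of HOXD. Of these, 13 had a mean of at least 10 normalised reads over the 6 libraries. Genes of HOXA and other HOX genes were not analysed here. BE-(2)-C is an established human neuroblastoma line with an amplified MYCN gene, so all results come from 1 line. One group received control siRNA and the other ELF4 siRNA, with 3 libraries of polyA-selected RNA in each. No source used here gives the sequence, dose or number of the siRNAs. The series title names ELF4 as a promoter of proliferation and of the undifferentiated state, and the comparison asks how the RNA of the cells differs when ELF4 is lowered.

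HOX proteins are homeodomain transcription factors that give cells along the body axis their positional identity. Their genes lie in clusters in which genes with low paralogue numbers are expressed early and toward the head, and genes with high numbers late and toward the tail. Neuroblastoma arises from the sympathoadrenal lineage of the neural crest, and trunk sympathetic precursors carry a HOX code of this kind. Polycomb complexes hold the clusters silent, trithorax complexes and retinoic acid open them, and proteins of the TALE class bind DNA together with HOX proteins. ELF4 belongs to the ETS family, whose members bind DNA at a GGAA core.

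The libraries held 23148635 to 38097986 reads. ELF4 was at 42.4, 38.8 and 46.8 normalised reads in control replicates 1 to 3 and at 5.51, 5.61 and 3.10 in ELF4 siRNA replicates 1 to 3, or 11.1% of control, so the labels held for the targeted gene. All 12 markers of the neuroblastoma lineage, such as HAND2 and GATA3, had a mean of at least 10, and their summed level was 244367 to 261452 in the controls and 281291 to 303810 after ELF4 siRNA. The 5 Schwann cell markers with a row of their own summed to 176 to 204 and 199 to 221, the 8 fibroblast markers to 9158 to 9358 and 8101 to 8711, the 2 blood markers with a row to 46.8 to 53.7 and 31.9 to 48.3, and the 4 epithelial markers to 51.0 to 58.4 and 35.9 to 43.0. Markers moved apart within these sums. Of 7 tested fibroblast markers, 4 rose, COL3A1 to 343% of control and DCN to 178% among them, and 2 fell, PDGFRB to 44.0% and THY1 to 82.6%. Of the blood markers PTPRC rose to 220.1% and CD14 fell to 41.4%. Most of the fibroblast sum in the controls came from THY1 (mean 5376) and PDGFRB (mean 1989). All libraries are of 1 cell line, so these sums are RNA levels and not counts of cells of other types. None of the markers with a row had a group mean of 0, and their part in the HOX results was not tested.

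After ELF4 siRNA, HOXD10, HOXD13 and HOXC8 fell, while HOXD8 and HOXD9 rose by a smaller amount. HOXD10 was left at 26.0% of its control level, HOXD13 at 39.5% and HOXC8 at 58.4%. HOXD8 went to 121% and HOXD9 to 122%. The other 8 tested members did not pass. Together 5 of 13 tested members passed (38.5%), where 45.1% of all 20339 genes tested passed. In the single directions 3 of 13 members fell against 24.4% of all genes, and 2 of 13 rose against 20.7%, so the share of members that passed lay near that of all genes. The median log2 fold change was -0.12 over the members and -0.0042 over all genes tested. For 6 of the 13 members no library of one group lay within the range of the other, against 53.6% of all genes. Before adjustment, 7 of the 13 members had a p under 0.05. In such bulk RNA, fewer cells that express a gene and less of its RNA per cell cannot be told apart.

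**Figure D1:**
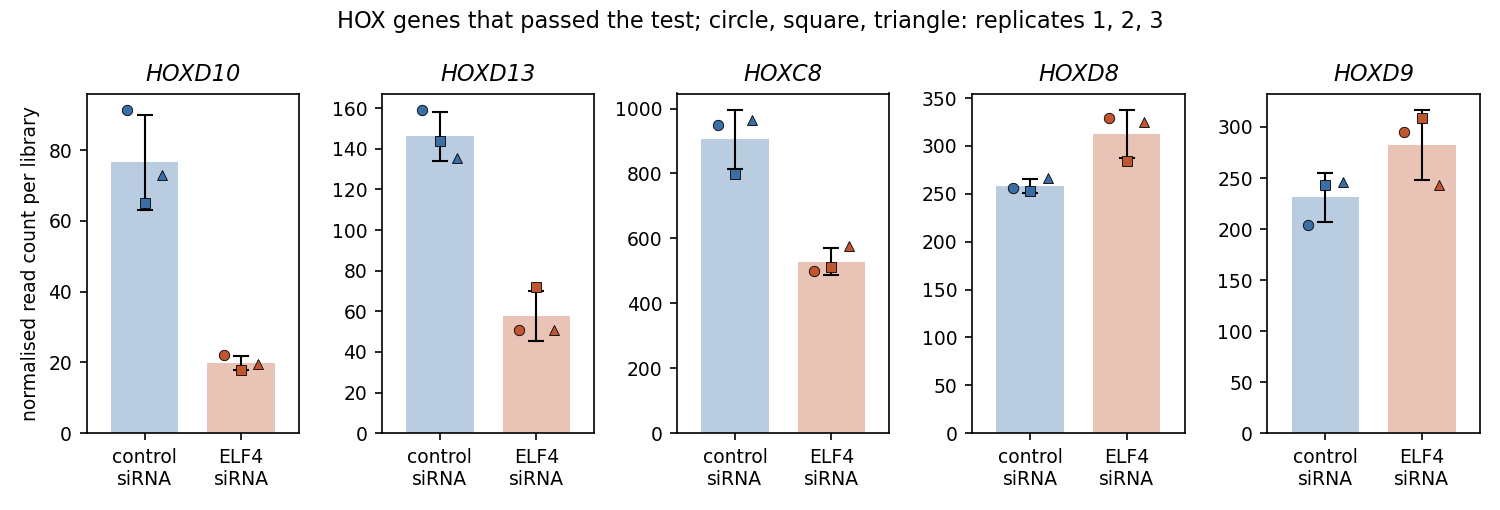
Normalised read count per library (y axis, from 0) of the 5 HOX genes that passed the test, in control siRNA (blue) and ELF4 siRNA (orange) libraries. Bars are group means, lines are ± 1 SD with n = 3, and circle, square and triangle are replicates 1, 2 and 3. HOXD10, HOXD13 and HOXC8 have no overlap between groups, whereas ELF4 siRNA replicate 3 of HOXD9 (243.2) lies among the controls.

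HOXD10 is a posterior HOX gene known for its part in the patterning of the lumbar spinal cord and the limb. Control replicates 1 to 3 held 91.4, 65.1 and 73.0 normalised reads of it, against 22.0, 18.0 and 19.7 in replicates 1 to 3 with ELF4 siRNA. All ELF4 siRNA libraries lay far below the lowest control, and control replicate 1 was the highest. Its mean of 76.5 ± 13.5 dropped to 19.9 ± 2.05 (SD, n = 3), and limma put the log2 fold change at -1.88 with a 95% interval of -2.24 to -1.52 (SE 0.17, adjusted p = 8.11e-07). Of the 20339 genes tested, 10 had a log2 fold change at or below this one, HOXD10 included. The ELF4 siRNA values rest on 20, 16 and 19 reads, against 97, 57 and 103 in the controls. By exact two-sided permutation of the 6 values p was 0.1, and groups of 3 and 3 cannot give a smaller one.

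HOXD13, the last gene of its cluster, acts in the digits and the genital tract, and mutations in it cause malformed digits. It was at 159, 144 and 135 normalised reads in the controls and at 50.7, 71.8 and 50.7 after ELF4 siRNA. The groups were well apart, with ELF4 siRNA replicate 2 above the other libraries of its group. Its mean of 146 ± 12.1 dropped to 57.7 ± 12.2, which limma put at -1.34 on the log2 scale (SE 0.14, 95% interval -1.64 to -1.04, adjusted p = 3.25e-06). There were 57 tested genes with a log2 fold change at or below it.

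The start regions of the HOXD genes that fell are shown beside that of HOXD8, which rose, because ELF4 is an ETS factor and these genes are neighbours in 1 cluster. The windows run from 250 bases before to 50 bases after the start that RefSeq gives on GRCh38.p14, all on the plus strand of chromosome 2, and capitals mark GGAA or its reverse complement TTCC.
HOXD13, chr2:176092471-176092770: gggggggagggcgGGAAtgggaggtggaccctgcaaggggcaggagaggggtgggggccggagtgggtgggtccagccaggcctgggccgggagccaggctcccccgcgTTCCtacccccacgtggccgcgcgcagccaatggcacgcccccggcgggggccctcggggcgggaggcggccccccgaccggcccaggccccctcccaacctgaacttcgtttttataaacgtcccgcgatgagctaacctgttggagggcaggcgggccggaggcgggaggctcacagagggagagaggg
HOXD10, chr2:176116528-176116827: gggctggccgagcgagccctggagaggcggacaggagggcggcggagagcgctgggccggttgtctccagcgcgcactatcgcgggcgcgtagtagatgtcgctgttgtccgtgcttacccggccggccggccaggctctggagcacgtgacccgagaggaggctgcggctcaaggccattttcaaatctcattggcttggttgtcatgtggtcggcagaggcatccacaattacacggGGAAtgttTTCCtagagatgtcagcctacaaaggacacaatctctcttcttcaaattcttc
HOXD8, chr2:176129455-176129754: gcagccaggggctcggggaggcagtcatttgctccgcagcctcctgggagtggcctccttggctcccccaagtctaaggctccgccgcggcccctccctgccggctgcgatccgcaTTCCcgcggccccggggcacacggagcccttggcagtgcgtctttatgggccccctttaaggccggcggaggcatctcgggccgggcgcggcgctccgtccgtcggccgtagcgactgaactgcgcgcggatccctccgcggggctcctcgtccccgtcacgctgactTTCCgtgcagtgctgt
Each of these 3 windows held 2 matches to GGAA on either strand. HOXD3 had 3, the window that HOXC4 and HOXC5 share had 4, and HOXD1 had none. The core is short: 95.5% of the 35116 RefSeq windows of 300 bases held at least 1 match, with a median of 3. The longer CCGGAA, which contains GGAA, was in 17.2% of all windows, counting both strands, and in none of the windows of the 7 members that have one. The windows of HOXD10, HOXD13 and HOXD8 held fewer matches than that median, and a link between matches and direction of change was not tested. These letters are a description and not binding sites, and windows of the other 8 members were not used here.

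HOXC8, a gene of the trunk that is expressed in the thoracic and brachial spinal cord, was one of the most abundant members. It was at 951, 800 and 965 normalised reads in the controls and at 500.1, 511 and 575 after ELF4 siRNA. The highest ELF4 siRNA library was still well below the lowest control. Its mean of 905 ± 91.6 dropped to 529 ± 40.8, and limma gave -0.77 on the log2 scale (SE 0.08, 95% interval -0.94 to -0.61, adjusted p = 2.26e-06). These values rest on 454 to 1362 reads per library. There were 575 tested genes with a log2 fold change at or below it.

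Matches of 7 bases in the 3′ untranslated regions are shown for 2 separate reasons. HOX transcripts are known targets of microRNAs that lie in the same clusters, and the 7-mer ACCTGTC, which is the seed match of none of the cluster microRNAs examined here, is in both HOXC8 and HOXD10. The sequence of miR-196a, whose 2 genes lie in the HOXB and HOXC clusters, is given with its seed, bases 2 to 8, in capitals as listed by RefSeq. Below it are the matches on the sense strand of GENCODE 29 transcripts, with the 7 matching bases in capitals and 10 bases on either side.
hsa-miR-196a-5p: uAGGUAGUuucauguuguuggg
HOXC8, seed match ACTACCT at base 128 of the 3′ untranslated region: cacaactctaACTACCTgtcagatact
HOXC8, seed match ACTACCT at base 864: tctttaacatACTACCTaaagggaacc
HOXB7, seed match ACTACCT at base 221: ctgaaaaaatACTACCTataggaaagt
HOXC8, ACCTGTC at base 131: aactctaactACCTGTCagatacttgc
HOXD10, ACCTGTC at base 648: tacaacagcaACCTGTCctttctgtgc
The seed match of miR-196a stood in HOXC8 with 2 copies and in HOXB7 with 1. It was in none of the 3′ untranslated regions of the other 13 members, each searched in 1 transcript only. Of 12510 genes with a 3′ untranslated region, 8.08% held it. The 7-mer ACCTGTC was in HOXC8 and HOXD10 alone among the 15 members, against 11% of genes, and HOXC8 also holds CCTGTCA, which overlaps it by 6 bases. In HOXC8 both overlap the first seed match of miR-196a. HOXD13, which fell, has none of these, and HOXB7, which has a seed match, was too low to test. The 7-mers ACCTGTC and CCTGTCA had been picked in an earlier search of these data because genes with them had lower fold changes, so their presence here describes that choice and supports nothing. Mature microRNAs were not analysed here.

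HOXD8 and HOXD9, the next genes of the cluster after HOXD10, moved the other way. HOXD8 was at 256, 252 and 266 normalised reads in the controls and at 329, 284 and 325 after ELF4 siRNA, with no overlap. Its mean of 258 ± 7.18 rose to 313 ± 25.0, or by 0.27 on the log2 scale (SE 0.08, 95% interval 0.11 to 0.44, limma adjusted p = 0.0101). HOXD9, a gene of the thoracic and lumbar cord and the limb, was at 204, 243 and 247 in the controls and at 295, 309 and 243.2 after ELF4 siRNA. Here the groups overlapped, since ELF4 siRNA replicate 3 lay just under control replicate 2. Its mean of 231 ± 24.0 became 282 ± 34.6, and the log2 fold change was 0.29 (SE 0.10, 95% interval 0.07 to 0.50, limma adjusted p = 0.0332). By exact two-sided permutation p was 0.3 for HOXD9 and 0.1 for HOXD8. The call for HOXD9 was lost without control replicate 1 (adjusted p = 0.163), without ELF4 siRNA replicate 1 (0.112) or replicate 2 (0.137), and without the trend in the moderation (0.113).

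**Figure D2:**
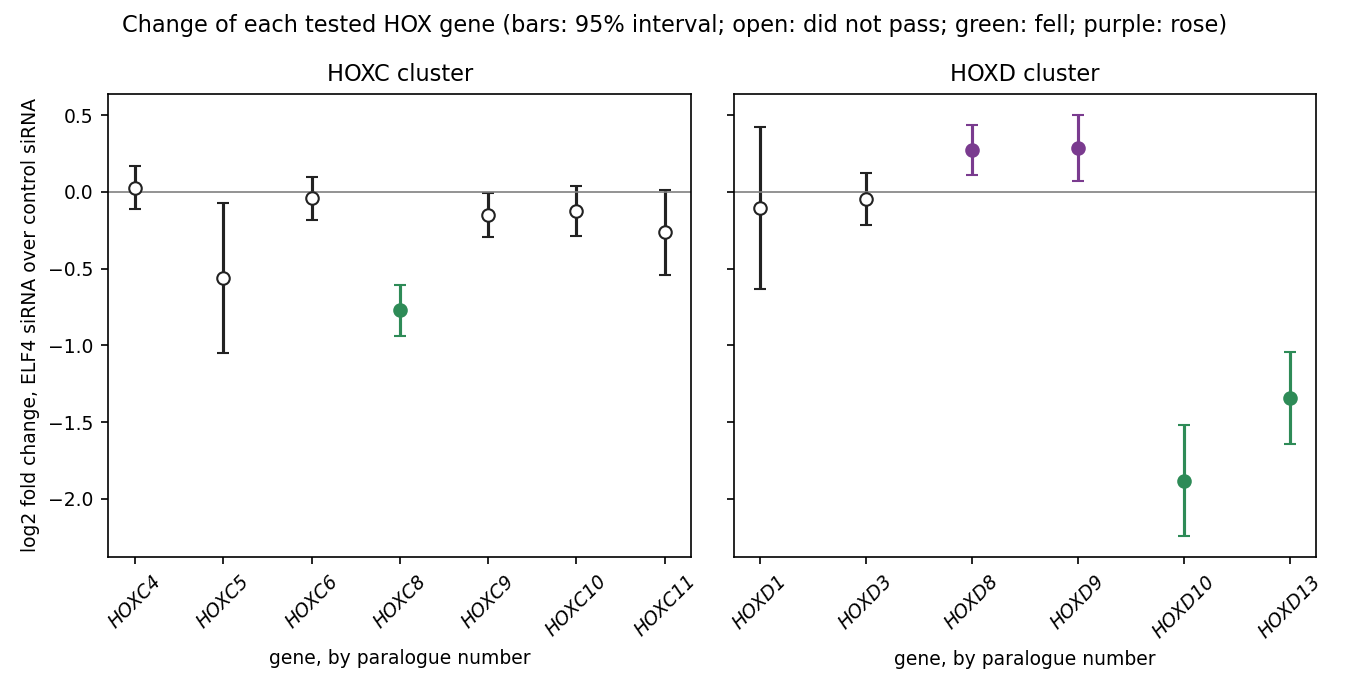
Change on the log2 scale from control siRNA to ELF4 siRNA (y axis) of the 13 tested HOX genes, ordered by paralogue number within HOXC (left) and HOXD (right). Lines are 95% intervals from limma, open points did not pass, green points fell and purple points rose. In HOXD the order runs from near 0 at HOXD1 and HOXD3 through 0.27 and 0.29 at HOXD8 and HOXD9 to -1.88 and -1.34 at HOXD10 and HOXD13.

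Among the 6 HOXD members, HOXD1 and HOXD3 did not pass, HOXD8 and HOXD9 rose, and HOXD10 and HOXD13 fell. These are not all the genes of the cluster, and the call for HOXD9 was lost in some fits. At the low-number end, the row that joins HOXD3 and HOXD4 fell (log2 fold change -0.79, limma adjusted p = 0.00544). HOXD1 was at 25.4, 19.4 and 19.8 normalised reads in the controls and at 25.3, 13.5 and 22.8 after ELF4 siRNA, and its log2 fold change of -0.10 has a wide interval (-0.63 to 0.42, limma adjusted p = 0.763). HOXD3 was at 305, 274 and 312 and then at 269, 287 and 306, with a log2 fold change of -0.05 and a narrower interval (-0.22 to 0.12, limma adjusted p = 0.663). The ratio of HOXD10 to its neighbour HOXD9 does not depend on how the libraries are scaled. It was 0.449, 0.268 and 0.296 in the controls and 0.0746, 0.0582 and 0.0809 after ELF4 siRNA. The HOXD members summed to 1031 ± 28.6 normalised reads in the controls and 981 ± 12.1 after ELF4 siRNA, 95.2% of control, so the sum hides changes in both directions.

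Along HOXC, HOXC8 was the only one of 7 tested members that passed. Its neighbour HOXC9, a trunk gene, was at 344, 324 and 327 normalised reads in the controls and at 289, 305 and 301 after ELF4 siRNA. These groups did not overlap, but the log2 fold change was small at -0.15 (95% interval -0.30 to -0.01) and did not pass (limma adjusted p = 0.0806). HOXC6, on the other side of HOXC8, was at 582, 529 and 567 and then at 584, 531 and 517, with a log2 fold change of -0.04 (95% interval -0.18 to 0.10, limma adjusted p = 0.644). HOXC4 was at 854, 736 and 828 and then at 864, 822 and 775, with a log2 fold change of 0.03 (95% interval -0.11 to 0.17, limma adjusted p = 0.768). For HOXC4 and HOXC6 the groups overlapped, and their intervals exclude a change as large as that of HOXC8.

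HOXC10, HOXC11 and HOXC5 had lower means after ELF4 siRNA but did not pass. HOXC10 was at 296, 262 and 277 normalised reads in the controls and at 261, 264 and 240.1 after ELF4 siRNA, with a log2 fold change of -0.12 (95% interval -0.29 to 0.04, limma adjusted p = 0.209). HOXC11 was at 80.1, 81.1 and 90.7 and then at 72.7, 78.6 and 59.0, with a log2 fold change of -0.26 (95% interval -0.54 to 0.01, limma adjusted p = 0.115). The groups of HOXC10 overlapped and those of HOXC11 did not. HOXC5, whose own row holds few reads, was at 39.6, 30.8 and 42.5 and then at 34.1, 25.8 and 17.6, with a log2 fold change of -0.56 just short of the threshold (95% interval -1.05 to -0.07, limma adjusted p = 0.0582). HOXC5 passed without control replicate 2 (adjusted p = 0.0348) or ELF4 siRNA replicate 1 (0.0151). The HOXC members summed to 3012 ± 206 normalised reads in the controls and 2548 ± 62.6 after ELF4 siRNA, 84.6% of control. Most of that drop came from HOXC8, which went from 905 to 529.

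Paralogues, the genes with the same number in different clusters, arose by duplication and share much of their homeodomain. HOXC8 over HOXD8 was 3.71, 3.17 and 3.62 in the controls and 1.52, 1.80 and 1.77 after ELF4 siRNA, so the members of this pair moved apart. HOXC10 over HOXD10 was 3.24, 4.02 and 3.80 in the controls and 11.8, 14.7 and 12.2 after ELF4 siRNA. HOXC9 over HOXD9 went from 1.69, 1.33 and 1.32 to 0.978, 0.989 and 1.24. Over these pairs and the neighbours HOXD10 over HOXD9 and HOXC8 over HOXC9, 5 ratios in all, the groups did not overlap. For each ratio the exact two-sided permutation p was 0.1, the lowest possible with these group sizes, and it was 0.1 after Benjamini-Hochberg adjustment over the 5. The pairs were chosen after the changes of single genes were known. Their separation therefore restates those changes, and these p-values add no support.

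Per kb of the longest GENCODE 29 coding transcript, the control level ran over 2 orders of size from HOXC4 down to HOXC13. HOXC4 (484 ± 37.3 normalised reads per kb) and HOXC8 (479 ± 48.5) were at the top and did not differ beyond their spread. HOXC9 (219 ± 7.05) and HOXC6 (190.1 ± 9.36) came next, and then HOXC10 (144 ± 8.86), HOXD8 (135 ± 3.74), HOXD3 (125 ± 8.42) and HOXD9 (124 ± 12.8), of which neighbours in the order lay within 1 or 2 SD of each other. HOXD13 (65.2 ± 5.41) and HOXD10 (38.5 ± 6.78) were set apart in the controls, and HOXC11 (25.7 ± 1.79), HOXC5 (20.9 ± 3.36) and HOXD1 (10.9 ± 1.70) were lower. After ELF4 siRNA, HOXC8 stood at 280 ± 21.6 per kb, below HOXC4 at 492 ± 26.6. HOXD10 then stood at 10.0 ± 1.03 per kb, near HOXD1 at 10.4 ± 3.16. These lengths are from another build than the hg19 build of the files. Reads in rows with joined names are left out here, so the order is approximate.

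**Figure D3:**
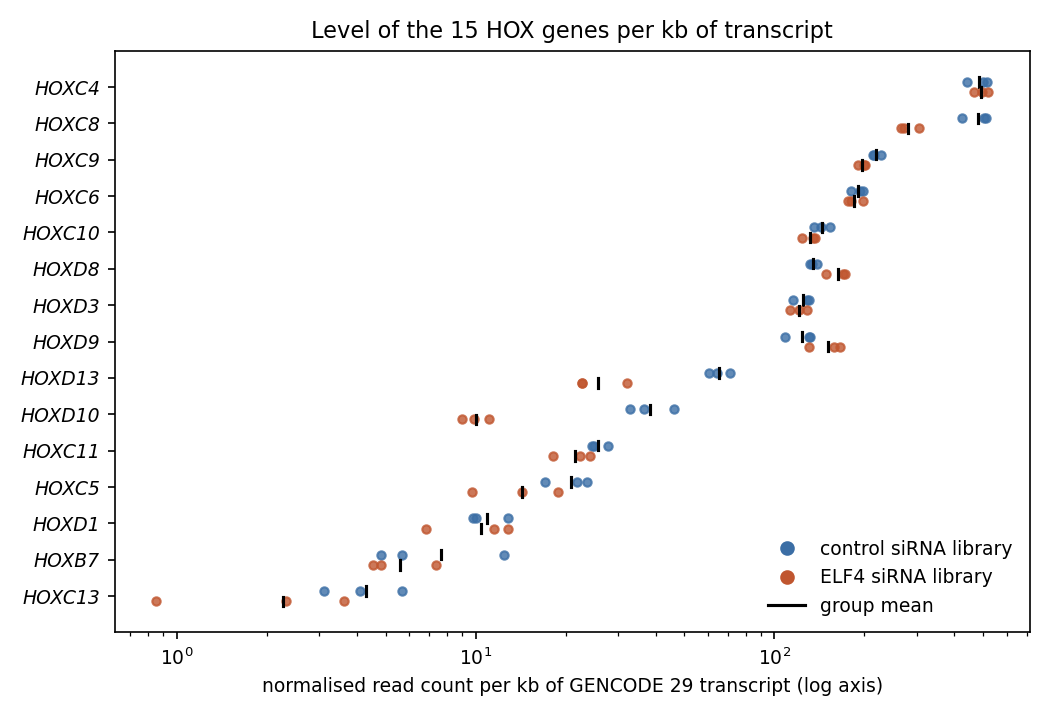
Normalised read count per kb of GENCODE 29 transcript (x axis, log scale) of the 15 HOX genes, sorted by their control mean, with 1 point per library (blue control siRNA, orange ELF4 siRNA) and a black bar at each group mean. HOXC8, HOXD13 and HOXD10 have orange points clear of the blue ones on the left, from 479 to 280 per kb on average for HOXC8, and HOXB7 and HOXC13 lie at the bottom.

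The 2 members with a mean under 10 were HOXB7 and HOXC13, and they were not tested because fewer than 3 libraries reached 10. HOXB7 was just under that mean, at 9.07 over the 6 libraries, with 6.60, 17.1 and 7.79 normalised reads in the controls and 6.61, 10.1 and 6.21 after ELF4 siRNA. HOXC13, a gene of hair and nail, had 7.54, 13.7 and 9.92 and then 8.81, 5.61 and 2.07. The groups overlapped for both. HOXD1, with a mean of 21.0, was the lowest member above that mean.

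In 6 further rows a HOX name was joined with other names, and what made these rows is not recorded. Of the 5 such rows tested, 1 fell and 4 did not pass. The row of HOXD3 and HOXD4 was at 36.7, 27.4 and 42.5 normalised reads in the controls and at 17.6, 22.4 and 19.7 after ELF4 siRNA, which limma put at -0.79 on the log2 scale (SE 0.20, adjusted p = 0.00544), while HOXD3 alone did not pass. The row that also holds MIR10B was at 82.9, 77.7 and 80.8 and then at 73.8, 80.8 and 54.9 (log2 fold change -0.22, limma adjusted p = 0.232). The row of HOXD10 and HOXD11, too low to test, was at 15.1, 5.71 and 6.38 and then at 5.51, 2.24 and 1.03. The row of HOXC5 with noncoding names held more reads than HOXC5 itself, at 204, 208 and 230 and then 202, 184 and 161, with a log2 fold change of -0.23 (limma adjusted p = 0.0588). That row passed without ELF4 siRNA replicate 1 (-0.31, limma adjusted p = 0.0262) and where a mean of at least 100 was asked (adjusted p = 0.0493). The row of HOXC4 and HOXC6 (log2 fold change -0.05) and that of HOXC10 with a noncoding name (-0.24) had groups that overlapped. Their reads cannot be divided between the genes named.

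Noncoding RNAs from the clusters had 6 rows, all tested: HOTAIR rose and the other 5 did not pass (16.7% passed, against 45.1% of all genes). HOTAIR, a long noncoding RNA transcribed antisense within HOXC and known for its reported ties to Polycomb repression at HOXD, was at 429, 379 and 461 normalised reads in the controls and at 488, 471 and 583 after ELF4 siRNA. Its groups did not overlap, and its log2 fold change was 0.28 (SE 0.09, limma adjusted p = 0.0191). That call was lost without control replicate 2 (adjusted p = 0.0744), without ELF4 siRNA replicate 3 (0.0975) and without the trend (0.0978). HOXD-AS2, an antisense RNA near HOXD8, was at 102, 117 and 112 and then at 126, 116.7 and 139 (log2 fold change 0.20, limma adjusted p = 0.128). HOXC-AS3 (log2 fold change -0.62, limma adjusted p = 0.151) and HOXC-AS1 (-0.05, limma adjusted p = 0.863) did not pass either and had overlapping groups. HOXC-AS3 passed without ELF4 siRNA replicate 1 (-0.98, limma adjusted p = 0.0298). No strand setting is given, so an antisense RNA and the HOX gene it overlaps cannot be told apart where they share bases.

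Genes beside the clusters mostly did not pass, with 2 of 8 tested that rose and none that fell (25% passed, against 45.1% of all genes). CALCOCO1, a coiled-coil protein gene on the HOXC13 side of HOXC, went from 474 ± 18.6 to 859 ± 38.3 normalised reads (log2 fold change 0.85, limma adjusted p = 6.82e-08). ATP5G2, a subunit gene of the ATP synthase beyond it, went from 7526 ± 115 to 8794 ± 201 (0.22, limma adjusted p = 0.000199). KIAA1715, on the HOXD13 side of HOXD, had a log2 fold change of -0.13 (limma adjusted p = 0.1) and HIBADH, near HOXA, one of 0.10 (limma adjusted p = 0.193). Without control replicate 2, KIAA1715 fell (-0.20, limma adjusted p = 0.00514), and the number of neighbours that fell was 1.

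The list of TALE class genes, to which a gene from outside the class was added, had 10 genes tested. Of these, 4 fell and 1 rose, around a median log2 fold change of -0.09. The share that passed was 50%, against 45.1% of all genes tested. Not every gene of the list encodes a protein that binds DNA with HOX factors. The number that rose was 2 without control replicate 3 and 0 without the trend. TGIF1 (-0.89) and TGIF2 (-0.70), repressors of this class, fell (limma adjusted p = 2.1e-05 and 1.13e-06). MEIS3 fell by less (-0.29, limma adjusted p = 0.000515).

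Polycomb genes moved in both directions, with 14 lower and 5 higher calls among 27 tested (70.4% passed), around a median log2 fold change of -0.18. Of all genes tested 45.1% passed, and a larger share did where a mean of at least 100 was asked. Most of these Polycomb genes had a mean above 100. EED, a core subunit of the complex that writes the repressive mark, went from 919 ± 38.0 to 578 ± 29.7 normalised reads (-0.67, limma adjusted p = 6.6e-07), and its partner MTF2 from 1104 ± 119 to 686 ± 15.3 (-0.68, limma adjusted p = 3.03e-06). KDM2B, which brings Polycomb to CpG islands, fell (-0.60, limma adjusted p = 4.7e-07), as did PHF19 (-0.37, limma adjusted p = 7.24e-06). The 18 tested trithorax and MLL genes had 5 higher and 3 lower calls (44.4% passed) around a median of 0.01. KDM6B, a demethylase of the Polycomb mark, went from 1654 ± 6.02 to 2367 ± 47.9 (0.52, limma adjusted p = 3.21e-07), and the methyltransferase genes KMT2C (0.48) and KMT2B (0.32) rose as well (limma adjusted p = 3.68e-05 and 3.87e-05). DPY30, a shared subunit of these complexes, fell (-0.53, limma adjusted p = 2.18e-06).

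Insulator and cohesin genes, whose products bound the domains of the clusters, had 6 of 8 tested that fell and none that rose, with a median of -0.15. RAD21, a cohesin subunit, went from 8474 ± 533 to 6190.5 ± 168 normalised reads (-0.45, limma adjusted p = 3.28e-06), MAZ had -0.47 (limma adjusted p = 4.45e-07), STAG1 -0.21 (limma adjusted p = 0.00217) and SMC1A -0.14 (limma adjusted p = 0.00721). The number that fell was 3 without control replicate 1, and also 3 without the trend. Genes of retinoic acid and caudal inputs had 5 lower and 2 higher calls among 11 tested, around a median of -0.09, and the number that rose was 1 with DESeq2 and without any 1 library other than control replicate 2. RARG, a retinoic acid receptor, was at 454, 470 and 472 normalised reads in the controls and at 282, 276 and 223 after ELF4 siRNA (log2 fold change -0.84, SE 0.09, limma adjusted p = 2.71e-06). The binding proteins CRABP1 (-0.54) and CRABP2 (-0.65) fell as well, and STRA6, which takes up retinol, rose (0.29), with limma adjusted p of 2.92e-05, 9.34e-06 and 3.68e-05. Homeobox genes outside the clusters had 3 of 7 tested that rose and 3 that fell, among them NKX6-1 (0.30), DLX5 (0.62), MSX1 (-0.66) and TLX1 (-0.40), with limma adjusted p of 0.000317, 0.00468, 0.000931 and 0.00588. These lists are read as counts beside the 45.1% of all genes that passed, with no test of a list. Most genes of the lists had a mean above 100. Where a mean of at least 100 was asked, 3353 genes rose and 4424 fell among 13056 tested, a larger share than 45.1%.

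**Figure D4:**
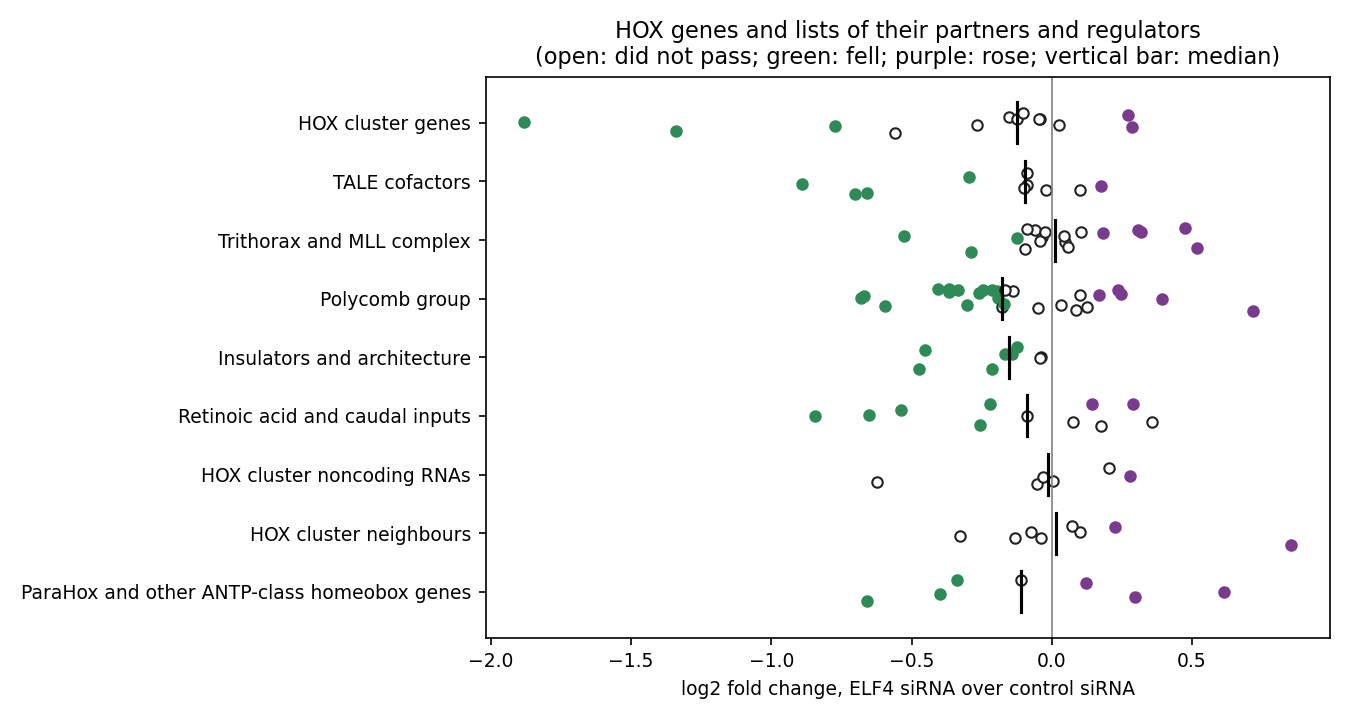
Change on the log2 scale from control siRNA to ELF4 siRNA (x axis) of each tested HOX gene and of each tested gene in 8 lists of partners, regulators and neighbours (rows). Each point is 1 gene, open points did not pass, green points fell, purple points rose, and the black bar is the median. HOXD10 and HOXD13 lie at -1.88 and -1.34, lower than each gene of the 8 lists, where TGIF1 is lowest at -0.89.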

How the data were processed

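Per the file headers and labels, the deposited signal is a normalised read count per gene in 6 libraries. The hg19 build and the tools DESeq2, featureCounts and TopHat are named, per the submitters' processing notes. Versions, annotation, strand setting and filters are in none of the sources used. Every value was a whole multiple of 1 read (100% within 0.001), so reads were recovered. Rows with joined names numbered 2148 of 26906 and held 11.4% of the reads.

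ELF4 siRNA was compared with control siRNA by limma 3.58.1 in R 4.3.3, with a trend, on log2(value + 1), which understates changes of low genes. Genes at 10 or more in at least 3 libraries were tested across the whole table, with Benjamini-Hochberg adjustment and a threshold of 0.05. The labels do not say whether libraries came from separate cultures, and a p-value then measures spread that may be technical. The fits were also run on simulated data in which far fewer genes changed than were called here. That run checks the code and not these calls. Alternatives were 2 pseudocounts, 3 filters, 2 scalings, no trend, edgeR 4.0.16 and DESeq2 1.42.0 on recovered reads, a replicate block and leaving out each library. Named were ELF4, all members with a mean of at least 10, and up to 4 members of each list with the smallest adjusted p. One gene that this rule names is not reported here. The members and lists were chosen with earlier results of these data known. Promoter and microRNA sequences are RefSeq's on GRCh38.p14 (7 of 15 members had a promoter), and transcripts are GENCODE 29's, of the longest coding transcript per gene, and no coordinates are set against hg19.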

Additional observations from a re-analysis of the deposited data

How the results depend on the processing

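Of 217 values of HOX members under the alternatives, 209 kept their direction where called and their side of the threshold, 4 lost the call (HOXD9) and 4 gained it (HOXC5, with edgeR, with the replicate block and without 1 of 2 libraries). HOXC8 and HOXD13 passed under all 17 alternatives and HOXD10 under the 16 that tested it, with log2 fold changes of -0.86 to -0.72, -1.51 to -1.26 and -1.99 to -1.70. HOXD8 passed under all 17, with an adjusted p of up to 0.0489. The number of HOX members that rose was 1 without the trend and 1 to 2 when a library was left out, and the number that fell was 3 to 4. Among all genes 3516 to 4102 rose and 4142 to 4968 fell without a library, and over the 8 lists 16 to 18 rose and 29 to 38 fell. The number that fell was 2 where a mean of at least 100 was asked, which leaves HOXD10 out. For HOXD9 and HOXC5 the cause was not tested. Deviations of same-numbered libraries correlated at 0.03, 0.07 and 0.04, and those of differently numbered libraries at -0.06 to 0.02. All these correlations were weak, with the same-numbered ones the highest, and the difference between the 2 kinds was not tested. A replicate block raised the counts over all genes to 4564 higher and 5346 lower, HOX members to 2 and 4, and cluster neighbours that fell to 1 (KIAA1715, adjusted p = 0.038). Depth limits HOXD10 after ELF4 siRNA, at 16 to 20 reads, and HOXB7 and HOXC13, at 2 to 15.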
